A study of Homo sapiens with 9 samples.

Results

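Transcription factor genes that are known for pluripotency and for the germ line were followed in TCam-2 cells with and without activation of the ESX1 gene. They were the 10 listed genes POU5F1, NANOG, SALL4, TFAP2C, PRDM1, PRDM14, KLF4, TFCP2L1, ZSCAN10 and UTF1, taken by symbol from the 63856 genes of the deposited tables. Where a symbol had several rows, the row on a primary chromosome was used, which concerned only POU5F1, whose 6 other rows on alternative scaffolds held 0 counts. All 10 genes were among the 18452 genes with enough counts for testing.

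Transcription factors of the pluripotency network bind regulatory DNA together, keep one another expressed and hold genes of other lineages silent. Primordial germ cells, the embryonic precursors of sperm and eggs, reuse a part of this network and add factors of their own, above all TFAP2C and PRDM1. Seminoma, a testicular germ cell tumour, resembles primordial germ cells and keeps both sets of factors, which is why POU5F1 and NANOG serve as its diagnostic markers.

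RNA was sequenced from 9 samples of TCam-2, a human cell line from a testicular seminoma, with 3 biological replicates in each of 3 groups. The wild type (WT) was not modified. The ESX1 cells carried CRISPRa, a system in which a nuclease-dead Cas9 fused to the VPR activator (dCas9-VPR, under a doxycycline-inducible promoter on a PiggyBac vector) is led to a gene by guide RNAs, here gRNAs specific for ESX1 on a vector with GFP. The negative control (NC) received the same guide vector with gRNAs nonspecific for the human genome, and the methods do not say whether dCas9-VPR was delivered with it. Transfected cells were selected with puromycin and induced with doxycycline, and GFP was seen in only part of the cells, so the transfected groups were mixed populations and not clones. A difference between ESX1 cells and WT cells therefore holds the guides, dCas9-VPR, the transfection, the selection and the doxycycline together, which cannot be told apart. The comparison of ESX1 cells with NC cells is nearer to the guides. It may also hold dCas9-VPR, since its delivery to NC is not stated. In bulk RNA, fewer cells that express a gene and less RNA per cell cannot be told apart.

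The library totals were 7494442 to 10644408 counts in WT, 8821806 to 9220653 in NC and 5212804 to 9990966 in ESX1 cells, where replicate 3 was the shallowest library. Mitochondrial genes took 14.5% to 15.3% of the counts in NC and 17.0% to 19.9% in WT and ESX1 cells. The ESX1 gene itself stood at 38.1, 37.3 and 21.0 normalized FPKM in the 3 ESX1 samples. In the 6 control samples it stood at 1.94 to 2.73, so the 3 ESX1 libraries went with their label. WT (2.10 to 2.73) and NC (1.94 to 2.43) overlapped, so this gene does not check which control library is which. Normalized FPKM here means counts scaled by library (TMM) and divided by the summed exon length in kilobases, which allows a comparison between genes. Markers of seminoma were present as well. All 12 of 12 seminoma or primordial germ cell markers were tested, 5 of them among the 10 genes, and their summed level was 4034 to 4942 normalized CPM (TMM-scaled counts, set to the same total in each library) in WT, 3073 to 3317 in NC and 1772 to 2139 in ESX1 cells. The largest parts of this sum in WT were POU5F1, TFAP2C and NANOG, at 1267, 998 and 712.5 normalized CPM, so it is not separate from the 10 genes. SOX17, the endodermal and germ cell factor of seminoma, was at 227 normalized CPM in WT. SOX2, which marks embryonal carcinoma instead, was at 4.24 in WT, 9.84 in NC and 7.86 in ESX1 cells. Other embryonal carcinoma markers were not all low in WT, with DNMT3B at 74.8 and TDGF1 at 49.6. GDF3, ZFP42 and FOXD3 were at 0.734, 0.105 and 0.0712 there.

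Expression of the 10 transcription factors was lower in ESX1 cells than in both controls for most of them, and it was already lower in NC than in WT. Against NC, 7 of the 10 fell (adjusted p below 0.05 in edgeR's quasi-likelihood test, adjusted over all tested genes), and 0 rose. Of all tested genes, 4.25% passed in either direction, 2.37% as lower and 1.88% as higher. With the added demand of a 2-fold change, 3 of the 10 fell, namely NANOG, PRDM14 and ZSCAN10, against 0.699% of all tested genes. NANOG and ZSCAN10 were selected by the study on these samples, so this count is not independent evidence. Against WT, 10 of 10 fell, beside 28.8% of tested genes in either direction, 15.8% lower and 12.9% higher, and 6 of them at least 2-fold, beside 4.77%. Between NC and WT, 8 of 10 were lower in NC, beside 17.1% of tested genes in either direction, 10.3% lower and 6.82% higher, and 2 of them at least 2-fold, beside 2.15%. The 3 comparisons share samples, so their counts are not independent of each other.

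Over the 10 genes, the log2 fold change had a median of -0.76 against NC, -1.22 against WT and -0.65 for NC against WT, while its median over all tested genes was between 0.00044 and 0.0085 in these comparisons. For 8 of the 10, all 3 ESX1 samples lay below all 6 control samples, a pattern held by 7.21% of tested genes. KLF4 and TFCP2L1 were the exceptions. The NC samples did not overlap the WT samples and lay below them for 8 genes, all but SALL4 and UTF1, where 20% of tested genes did so. The ESX1 samples lay below all NC samples for 8 genes (11.8% of tested genes) and below all WT samples for 10 (21.3%). A full descending order, with every WT sample above every NC sample and every NC sample above every ESX1 sample, held for POU5F1, NANOG, TFAP2C, PRDM1, PRDM14 and ZSCAN10, that is 6 of 10 beside 3.52% of tested genes. The same 6 genes passed the test as lower in all 3 comparisons (0.916% of tested genes), and with SALL4 they made 7 that were lower against both controls (2.13%). Together the 10 genes gave 0.307% to 0.358% of all counts in WT, 0.253% to 0.270% in NC and 0.135% to 0.158% in ESX1 cells.

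**Figure D1:**
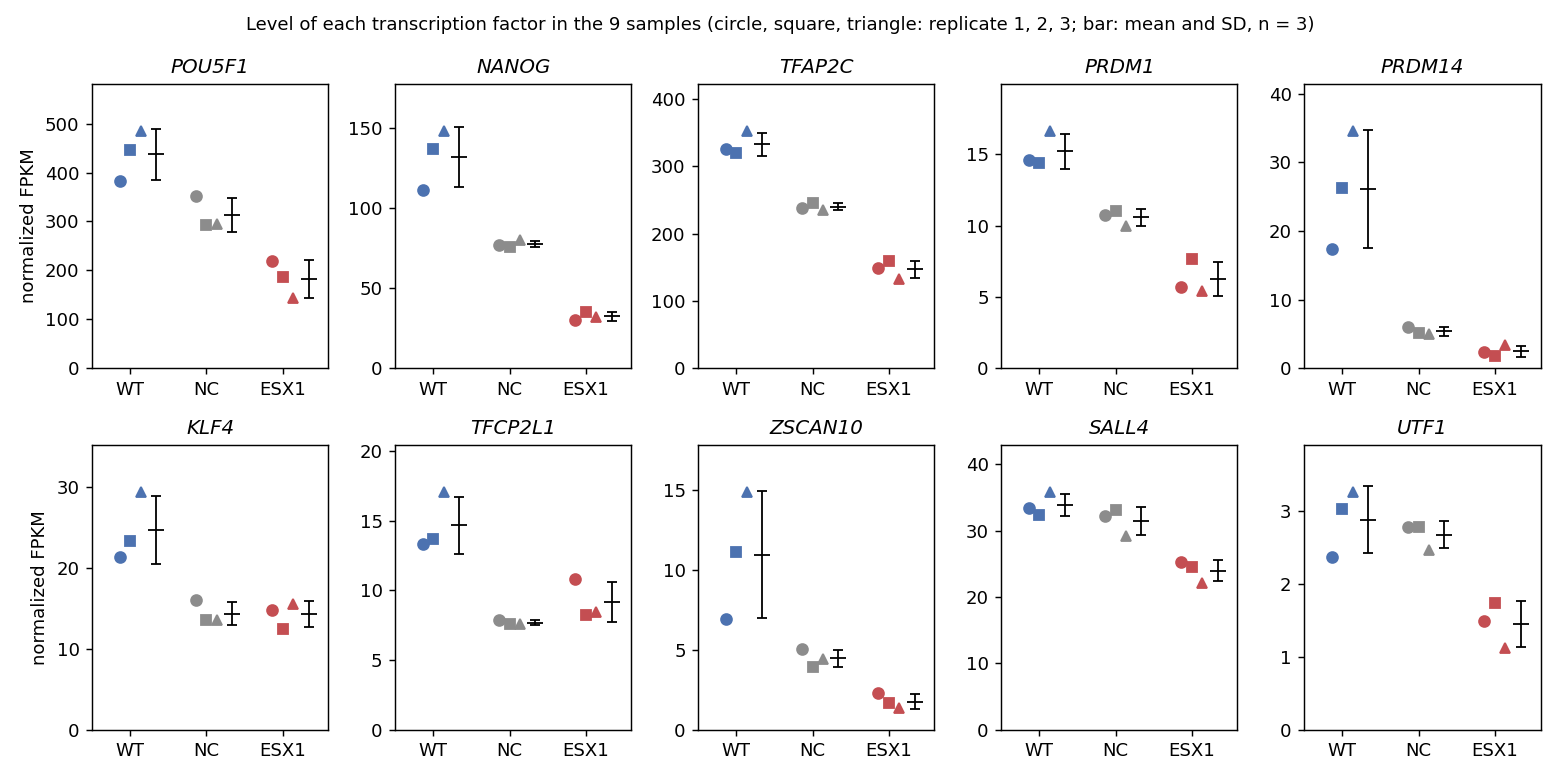
Each panel shows 1 gene, with normalized FPKM on a linear axis from 0 and the samples of WT, NC and ESX1 cells as points (circle, square and triangle for replicates 1, 2 and 3), and the bar beside them gives the mean and SD (n = 3). POU5F1, NANOG, TFAP2C, PRDM1, PRDM14 and ZSCAN10 step down from WT to NC to ESX1 cells without overlap, the ESX1 samples of SALL4 and UTF1 lie below overlapping WT and NC samples (UTF1 did not pass against NC, adjusted p = 0.222), and the WT samples of KLF4 and TFCP2L1 lie above all others.

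Sequence next to the start of transcription is shown for NANOG and ZSCAN10, which fell at least 2-fold against NC, and for KLF4 and TFCP2L1, which did not pass as lower against NC, so that the regulatory DNA of genes with different behaviour stands side by side. The sequences come from RefSeq on GRCh38.p14 and hold the 250 bases before the start that RefSeq annotates, written on the gene's own strand. For each of these genes this start lies inside the gene as the count table's annotation places it, since its outermost start is farther upstream. The windows of NANOG and KLF4 lie wholly inside the gene. Those of ZSCAN10 and TFCP2L1 reach into it only with the bases nearest the start. The windows are chr12:7789152-7789401 (plus strand) for NANOG, chr16:3099295-3099544 (minus strand) for ZSCAN10, chr9:107489770-107490019 (minus strand) for KLF4 and chr2:121285203-121285452 (minus strand) for TFCP2L1. Capitals mark matches to any of the 6 motifs described after the sequences.
NANOG: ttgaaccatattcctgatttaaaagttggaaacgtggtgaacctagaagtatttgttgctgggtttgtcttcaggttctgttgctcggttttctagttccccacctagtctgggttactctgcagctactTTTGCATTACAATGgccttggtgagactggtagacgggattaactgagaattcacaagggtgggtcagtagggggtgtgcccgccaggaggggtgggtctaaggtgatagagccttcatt
ZSCAN10: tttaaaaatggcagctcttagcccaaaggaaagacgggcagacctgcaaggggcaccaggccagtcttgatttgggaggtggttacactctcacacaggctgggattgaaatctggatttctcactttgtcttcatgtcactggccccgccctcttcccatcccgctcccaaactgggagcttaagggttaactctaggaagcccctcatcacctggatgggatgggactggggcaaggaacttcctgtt
KLF4: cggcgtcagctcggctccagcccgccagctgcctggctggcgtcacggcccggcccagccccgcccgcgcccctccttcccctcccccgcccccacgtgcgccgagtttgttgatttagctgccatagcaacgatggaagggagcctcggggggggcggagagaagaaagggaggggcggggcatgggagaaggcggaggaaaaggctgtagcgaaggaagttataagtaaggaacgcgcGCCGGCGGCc
TFCP2L1: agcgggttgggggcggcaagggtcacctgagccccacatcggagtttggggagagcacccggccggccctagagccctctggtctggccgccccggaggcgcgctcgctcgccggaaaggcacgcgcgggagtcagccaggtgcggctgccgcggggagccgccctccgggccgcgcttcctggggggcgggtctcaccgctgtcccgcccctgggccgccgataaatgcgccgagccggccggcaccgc

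Motifs of factors on the list were searched on both strands in these windows and in the 35116 RefSeq windows of the same length. The capitals in NANOG, TTTGCATTACAATG, run from base -120 to base -107 before the start. Read on the other strand they match CATTGTNATGCAAA, the composite element on which a SOX factor and POU5F1 bind side by side, in which the SOX core CATTGT and the octamer core ATGCAAA are also counted by themselves. The composite was present in 2 of the 35116 windows (0.0057%), the octamer core in 3.94% and the SOX core in 9.29%. The capitals in KLF4 match the AP-2 motif GCCNNNGGC, to which factors of the TFAP2 family bind, from base -10 to base -2, and 19.8% of all windows held such a match. The KLF box CCNCACCC was present in 16.7% of all windows and the homeodomain core TAATTA in 4.35%. In ZSCAN10 and TFCP2L1 these letters were not found. Of the 7 windows used for the listed genes (NANOG, ZSCAN10, KLF4, TFCP2L1, UTF1 and both starts of PRDM1), 2 held the octamer core and 3 the AP-2 motif, and 1 held the KLF box. The G and C content was 47.6% in NANOG, 53.2% in ZSCAN10, 69.2% in KLF4 and 76.8% in TFCP2L1, beside a median of 58% over all windows. These matches describe the letters only.

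The core of the network was considered first. POU5F1, or OCT4, is the POU-domain factor without which pluripotency is lost. It lies at chr6:31164337-31180731 on the minus strand of GRCh38 (ENSG00000204531.17) and was the most abundant of the 10 in WT, where it exceeded 99.8% of tested genes in level per length. Its level was 382, 446 and 485 normalized FPKM in the WT samples, 352, 294 and 294 in NC and 220, 187 and 143 in ESX1 cells. The groups did not overlap, and ESX1 replicate 3 was the lowest of all 9 samples. POU5F1 fell against NC, by a log2 value of -0.77 (standard error 0.137, edgeR adjusted p = 0.00291). Against WT the value was -1.26 (standard error 0.139, adjusted p = 4.19e-06), and NC was lower than WT by -0.48 (0.137, 0.0214). The mean level in ESX1 cells was still 183 ± 38.6 normalized FPKM (SD, n = 3), above 99.6% of tested genes. The call of NC against WT was lost when NC replicate 2, NC replicate 3, WT replicate 2 or WT replicate 3 was left out (adjusted p = 0.11, 0.115, 0.0679 and 0.0845).

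NANOG, a homeodomain factor that stabilizes the pluripotent state, stepped down between the groups with little spread within NC and ESX1 cells. It lies at chr12:7787794-7799141 on the plus strand (ENSG00000111704.10). The level was 112, 137 and 148 normalized FPKM in WT, 76.8, 75.8 and 79.8 in NC and 29.9, 35.3 and 31.8 in ESX1 cells. Every ESX1 sample was below every NC sample, and every NC sample was below every WT sample. NANOG changed by -1.26 on the log2 scale against NC (standard error 0.116, adjusted p = 7e-06), by -2.03 against WT (0.119, 9.53e-09) and by -0.77 from WT to NC (0.115, 0.000266). Taking the WT mean of normalized CPM as the base, NC cells held 58.6% of it and ESX1 cells 24.5%. NANOG is also one of the genes that the study selected on these samples, so its direction here is not independent evidence.

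SALL4, a zinc finger factor of stem cells and germ cells, moved least among the genes that passed against NC. It lies at chr20:51782331-51802520 on the minus strand (ENSG00000101115.12). Its level was 33.4, 32.4 and 35.7 normalized FPKM in WT, 32.3, 33.1 and 29.1 in NC and 25.3, 24.5 and 22.2 in ESX1 cells. WT and NC overlapped, and the 3 ESX1 samples lay below both. Against NC its change on the log2 scale was -0.39 (standard error 0.108, adjusted p = 0.048), against WT -0.50 (0.108, 0.00229), and between NC and WT -0.10 (0.107, 0.54). The call against NC stood close to the threshold and was lost in 10 of 19 alternative analyses, with an adjusted p of up to 0.206, while the log2 fold change stayed between -0.44 and -0.33 whichever sample was left out.

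Of the germ cell factors, TFAP2C (AP-2 gamma) is needed for the specification of human primordial germ cells and is a marker of seminoma. It lies at chr20:56629302-56639283 on the plus strand (ENSG00000087510.6). Its level was 325, 319 and 352 normalized FPKM in WT, 239, 246 and 236 in NC and 149, 159 and 133 in ESX1 cells. The 3 groups were separate, with SDs of 17.6, 5.16 and 12.96 normalized FPKM around means of 332, 240 and 147. TFAP2C changed by -0.71 on the log2 scale against NC (standard error 0.0966, adjusted p = 0.000315), by -1.18 against WT (0.0973, 2.19e-07) and by -0.47 from WT to NC (0.0961, 0.00289). In ESX1 cells the range of TFAP2C overlapped that of POU5F1, which it did not in WT or NC.

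PRDM1 (BLIMP1), the factor that silences somatic genes in primordial germ cells, followed the same steps at a lower level. It lies at chr6:106086320-106109939 on the plus strand (ENSG00000057657.15). The samples were at 14.6, 14.4 and 16.6 normalized FPKM in WT, 10.7, 11.1 and 9.94 in NC and 5.70, 7.65 and 5.42 in ESX1 cells. No group overlapped another, and ESX1 replicate 2 was the highest of its group. ESX1 cells differed from NC by a log2 value of -0.75 (standard error 0.135, adjusted p = 0.00329) and from WT by -1.27 (0.135, 2.8e-06), and NC differed from WT by -0.52 (0.131, 0.011). This call of NC against WT was lost without NC replicate 3 (adjusted p = 0.0732) and without WT replicate 3 (0.0524).

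PRDM14, a PR-domain zinc finger factor of early germ cells and embryonic stem cells, changed most of the 10 in relative terms, and mainly between WT and NC. It lies at chr8:70051651-70071693 on the minus strand (ENSG00000147596.3). Its counts were 390, 440 and 808 in WT, 143, 116 and 119 in NC and 58, 42 and 44 in ESX1 cells. In normalized FPKM these were 17.4, 26.3 and 34.6 in WT, 6.07, 5.09 and 4.96 in NC and 2.41, 1.73 and 3.33 in ESX1 cells. The groups did not overlap, although the WT samples spread widely, with a coefficient of variation of 32.8%. On the log2 scale, PRDM14 changed by -2.28 from WT to NC (standard error 0.232, adjusted p = 1.12e-05), by -3.44 from WT to ESX1 cells (0.257, 8.29e-08) and by -1.16 from NC to ESX1 cells (0.264, 0.0164). NC cells held 20.6% of the WT mean of normalized CPM and ESX1 cells 9.54%. The call against NC was lost without ESX1 replicate 2 (adjusted p = 0.0695) and without NC replicate 1 (0.0739).

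KLF4 and TFCP2L1, which support the naive form of pluripotency in embryonic stem cells, stood apart from the other 8. KLF4, a zinc finger factor used for reprogramming of somatic cells, lies at chr9:107484852-107490482 on the minus strand (ENSG00000136826.14). It was at 21.4, 23.4 and 29.4 normalized FPKM in WT, 16.0, 13.6 and 13.6 in NC and 14.8, 12.5 and 15.6 in ESX1 cells. Every transfected sample was below every WT sample, and NC and ESX1 cells overlapped. Compared with WT, the log2 value changed by -0.80 in ESX1 cells (standard error 0.138, adjusted p = 0.000367) and by -0.78 in NC (0.137, 0.000931). Between ESX1 cells and NC it was -0.015 (95% confidence interval -0.31 to 0.28, adjusted p = 0.976), and its sign turned without ESX1 replicate 2 or without NC replicate 1.

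TFCP2L1, a factor of the CP2 and grainyhead family, lies at chr2:121216587-121285207 on the minus strand (ENSG00000115112.7). It was at 13.3, 13.7 and 17.0 normalized FPKM in WT, 7.91, 7.58 and 7.59 in NC and 10.8, 8.24 and 8.44 in ESX1 cells. The ESX1 samples lay above all NC samples, as 10.7% of tested genes did, and below all WT samples. The difference from NC did not pass the test, with a log2 fold change of 0.25 (95% confidence interval -0.020 to 0.53, adjusted p = 0.361). TFCP2L1 was lower in NC than in WT (log2 fold change -0.93, adjusted p = 0.000156) and lower in ESX1 cells than in WT (-0.68, 0.000818). It was the only one of the 10 genes with a positive log2 fold change against NC.

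ZSCAN10, a SCAN-domain zinc finger factor of embryonic stem cells, fell against both controls. It lies at chr16:3088890-3099317 on the minus strand (ENSG00000130182.7). The counts were 211, 252 and 471 in WT, 161, 122 and 143 in NC and 74, 55 and 24 in ESX1 cells. In normalized FPKM the values were 6.94, 11.1 and 14.8 in WT, 5.03, 3.94 and 4.39 in NC and 2.26, 1.67 and 1.34 in ESX1 cells. The 3 groups did not overlap. ZSCAN10 changed by -1.31 on the log2 scale against NC (standard error 0.265, adjusted p = 0.00736), by -2.61 against WT (0.262, 1.6e-06) and by -1.30 from WT to NC (0.237, 0.00129). ZSCAN10 too was selected by the study on these samples.

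UTF1, a chromatin-bound factor of undifferentiated stem cells and spermatogonia, was the least abundant of the 10. It lies at chr10:133230274-133231558 on the plus strand (ENSG00000171794.3). It had 25, 24 and 36 counts in WT, 31, 30 and 28 in NC and 17, 20 and 7 in ESX1 cells, which is 2.36, 3.02 and 3.25, then 2.78, 2.78 and 2.46, then 1.49, 1.74 and 1.12 normalized FPKM. WT and NC overlapped, and the ESX1 samples lay below both. Against NC the log2 fold change was -0.85 (95% confidence interval -1.58 to -0.12) and did not pass after adjustment (adjusted p = 0.222). ESX1 cells differed from WT by -0.95 on the same scale (standard error 0.348, adjusted p = 0.0494), a call that was lost in 15 of 18 alternative analyses, with an adjusted p of up to 0.151. These values rest on 7 to 36 counts a sample.

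**Figure D2:**
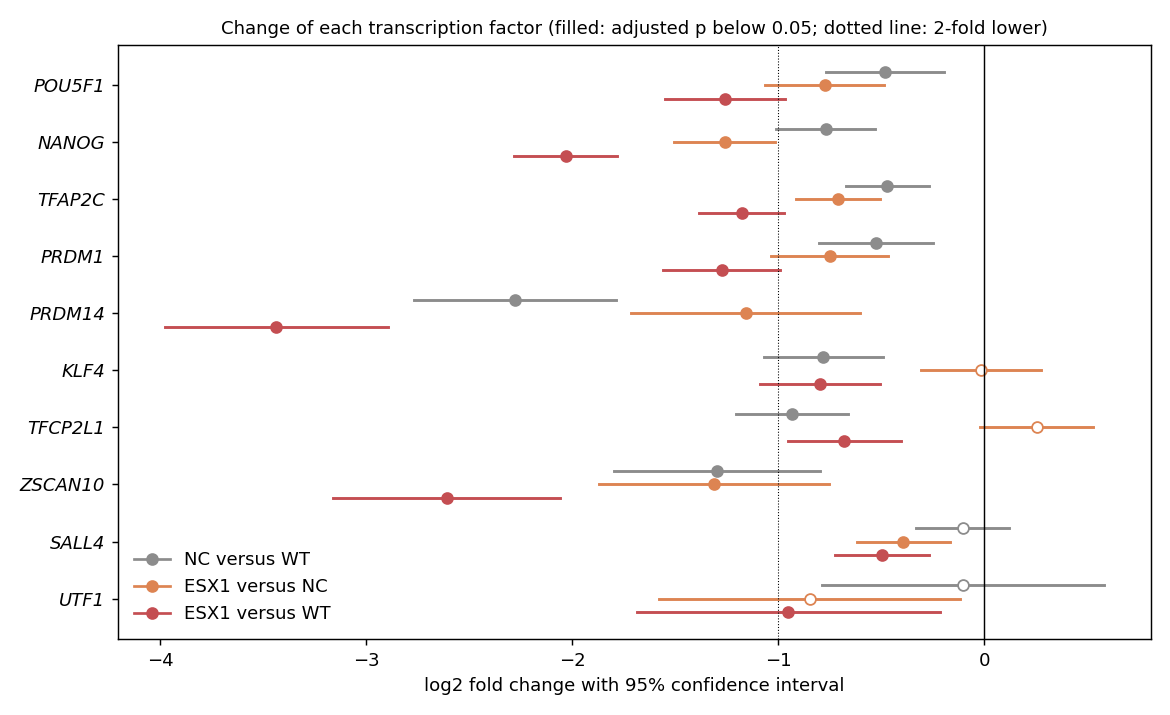
The log2 fold change of each gene is plotted with its 95% confidence interval for NC versus WT, ESX1 versus NC and ESX1 versus WT, with filled points for an adjusted p below 0.05 (edgeR) and a dotted line at a 2-fold fall. KLF4 and TFCP2L1 lie at -0.015 and 0.25 in ESX1 versus NC, apart from the other 8 genes, and PRDM14 lies farthest to the left, at -3.44, in ESX1 versus WT.

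The order of the genes by level per length changed in the lower ranks. In WT the order by mean normalized FPKM was POU5F1, TFAP2C, NANOG, SALL4, PRDM14, KLF4, PRDM1, TFCP2L1, ZSCAN10 and UTF1. Neighbours overlapped in their samples for SALL4 and PRDM14, PRDM14 and KLF4, PRDM1 and TFCP2L1, and TFCP2L1 and ZSCAN10, so these neighbours were not separated by their spread. The top 4 places were the same in NC and in ESX1 cells. PRDM14 moved from place 5 in WT to place 8 in both transfected groups, where its samples overlapped those of ZSCAN10. TFCP2L1 moved above PRDM1 in ESX1 cells, with 9.16 ± 1.43 against 6.26 ± 1.21 normalized FPKM (SD, n = 3), and these samples did not overlap. Seen among all tested genes by level per length, PRDM14 went from above 92.1% of them in WT to 62.5% in NC and 41.8% in ESX1 cells, and ZSCAN10 from 78.7% to 57.4% and 32.9%. POU5F1 and TFAP2C stayed above 99.4% or more in each group.

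**Figure D3:**
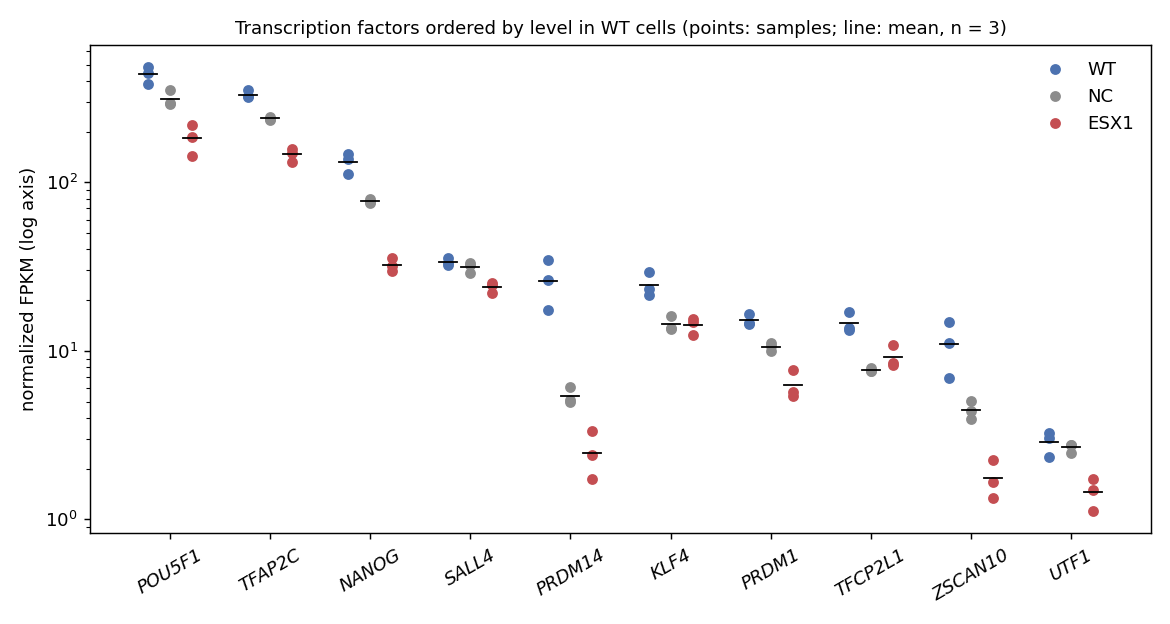
The 10 genes are placed from left to right by their mean level in WT, with normalized FPKM on a log axis, points for samples of WT, NC and ESX1 cells and a line at each mean (n = 3). The 3 most abundant genes keep their places, from 183 to 438 normalized FPKM for the means of POU5F1, while PRDM14 drops from 26.1 in WT to 5.37 in NC and 2.49 in ESX1 cells.

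Near-identical copies and overlapping genes bear on these counts. For POU5F1, 7 related copies on primary chromosomes held together 5.27% of the counts of POU5F1, and for NANOG 11 copies held 7.23%. The counting could have split reads between a gene and its copies, so values of the copies are uncertain. NANOGP8, a retrocopy of NANOG, had 42.3 normalized CPM in WT, 25.96 in NC and 9.66 in ESX1 cells, a log2 fold change of -1.42 against NC (adjusted p = 9.5e-05). POU5F1B had 23.1, 11.6 and 7.49 normalized CPM, and its log2 fold change against NC was -0.62 (adjusted p = 0.0875). Adding the copies to their gene left every call of the 10 genes on its side of the threshold. Exons of POU5F1 share 248 bases, or 8.56% of its exon length, with TCF19, a gene on the opposite strand, and the reads were counted without strand. Between ESX1 cells and NC, TCF19 differed by -0.18 on the log2 scale (adjusted p = 0.567). It was lower in ESX1 cells than in WT (-0.58, adjusted p = 0.00358) and lower in NC than in WT (-0.40, 0.0478), as POU5F1 was, and the part of the shared bases in the values of POU5F1 was not tested. The exons of the other 9 genes overlapped no exon of another gene.

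The relatives of the 10 genes were examined next, as a list of 50 paralogues of which 43 were tested. Against NC, 1 of them fell and 0 rose, beside 2.37% and 1.88% of all tested genes, with a median log2 fold change of 0.040. The one that fell was POU2F1 (OCT1), the broadly expressed relative of POU5F1, with a log2 fold change of -0.48 (adjusted p = 0.0356). Against WT, 5 fell and 8 rose, beside 15.8% and 12.9% of all tested genes, with a median of 0.26. The counts lie near this background and are not read as a result about the paralogues. In WT the listed gene was the most abundant of its family for POU5F1, TFAP2C, KLF4, ZSCAN10 and SALL4. TFAP2C stood at 332 normalized FPKM in WT against 1.84 for TFAP2A, and SALL4 at 33.9 against 7.05 for SALL2. Among the KLF genes, KLF4 went from 24.7 normalized FPKM in WT to 14.3 in ESX1 cells, beside KLF6 from 9.77 to 14.8 and KLF7 from 13.04 to 13.9. KLF6 rose against WT by 0.60 on the log2 scale (adjusted p = 0.00603), and KLF7 had 0.090 (0.676). In the grainyhead family, GRHL2 had the highest level, 22.1 normalized FPKM in WT and 23.2 in ESX1 cells, and differed from WT by 0.067 on the log2 scale (adjusted p = 0.72). These KLF, TFAP2, SALL and GRHL relatives were picked after their values were seen.

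Partners of the network, a list of 30 genes with 20 tested, held 5 genes that fell and 1 that rose against NC. Beside them, 2.37% of all tested genes fell and 1.88% rose. The median log2 fold change of the list was -0.51. PIM2, a serine/threonine kinase, fell by 1.40 on the log2 scale (adjusted p = 4.2e-05), FGF4, the growth factor of the inner cell mass, by 1.35 (0.00181) and L1TD1, an RNA-binding protein of stem cells, by 1.15 (4.2e-05). The other genes that fell were DPPA4, with a log2 fold change of -0.79 (adjusted p = 0.00154), and LIN28A, an RNA-binding protein that blocks let-7 maturation, with -0.70 (0.022), both named after their values were seen. TBX3, a T-box factor that is active in stem cells and also in differentiating cells, rose, with 25.2 normalized CPM in WT, 56.7 in NC and 146 in ESX1 cells and a log2 fold change of 1.36 against NC (adjusted p = 6.06e-05). Against WT, 12 of the 20 fell and 2 rose (median -0.98), beside 15.8% and 12.9% of all tested genes. Between NC and WT, 8 were lower and 2 higher in NC (median -0.35), beside 10.3% and 6.82%. The study selected PIM2, FGF4 and L1TD1 on these samples, so they are not independent evidence of the list's direction.

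Of 30 genes of primordial germ cells and seminoma that are not among the 10, 18 were tested. Where 2.37% of all tested genes fell and 1.88% rose against NC, 4 of the 18 fell and 0 rose (median log2 fold change -0.37). They were CXCR4, the chemokine receptor that guides migrating germ cells, at -1.22 (adjusted p = 6.61e-05), GFRA1, the GDNF co-receptor of spermatogonial stem cells, at -1.01 (0.0367), PDPN, the podoplanin antigen of seminoma, at -0.59 (0.00968) and ALPL, an alkaline phosphatase, at -0.51 (0.026). CXCR4 was also selected by the study on these samples. Against WT, 10 fell and 1 rose, beside 15.8% and 12.9% of all tested genes. NC against WT gave 5 lower and 0 higher, beside 10.3% and 6.82%. KIT, the receptor of stem cell factor, had 78.0 normalized CPM in WT, 20.1 in NC and 12.5 in ESX1 cells, with an adjusted p of 1.77e-07 against WT and 0.0874 against NC. SOX17 had 227, 251 and 245 normalized CPM in the same order and differed from NC by -0.033 on the log2 scale (adjusted p = 0.95). KIT and SOX17 were picked after their values were seen.

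Regulators of somatic lineages, which the network is known to hold silent, made a list of 28 genes, of which 15 were tested. Not all of them were silent in WT, where MSX2 was at 119, RUNX1 at 18.2, GATA4 at 16.7 and TFAP2A at 15.2 normalized CPM. These 4 were named after their values were seen. Against NC, 0 fell and 1 rose, beside 2.37% and 1.88% of all tested genes, with a median log2 fold change of 0.40. A single gene is not read as a result about the list. The gene that rose was ELF3, an epithelial ETS factor, with 7.72 normalized CPM in WT, 5.65 in NC and 13.6 in ESX1 cells and a log2 fold change of 1.29 (adjusted p = 0.00449), and it too was selected by the study on these samples. Against WT, 0 fell and 9 rose (median 1.13), beside 15.8% and 12.9% of all tested genes. In NC, 0 were lower than in WT and 4 higher (median 0.65), beside 10.3% and 6.82%. RUNX1, a factor of blood formation, had 18.2 normalized CPM in WT, 49.8 in NC and 85.6 in ESX1 cells, with an adjusted p of 0.000111 against WT and 0.214 against NC, and it was picked after its values were seen.

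Chromatin partners of the 10 factors, among them Polycomb and NuRD subunits, were all tested (23 of 23). Against NC, 1 fell and 0 rose, beside 2.37% and 1.88% of all tested genes, with a median of -0.085, and the gene was MTA3, a NuRD subunit, with a log2 fold change of -0.48. Against WT, 6 fell and 4 rose, beside 15.8% and 12.9% of all tested genes, and 6 in place of 10 were called when only the 6 samples compared were fitted. Between NC and WT 2 were lower and 3 higher in NC, beside 10.3% and 6.82% of all tested genes. Genes such as TFAP2A, KLF5 and PRMT5 stand in more than 1 of the lists and were counted in each.

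**Figure D4:**
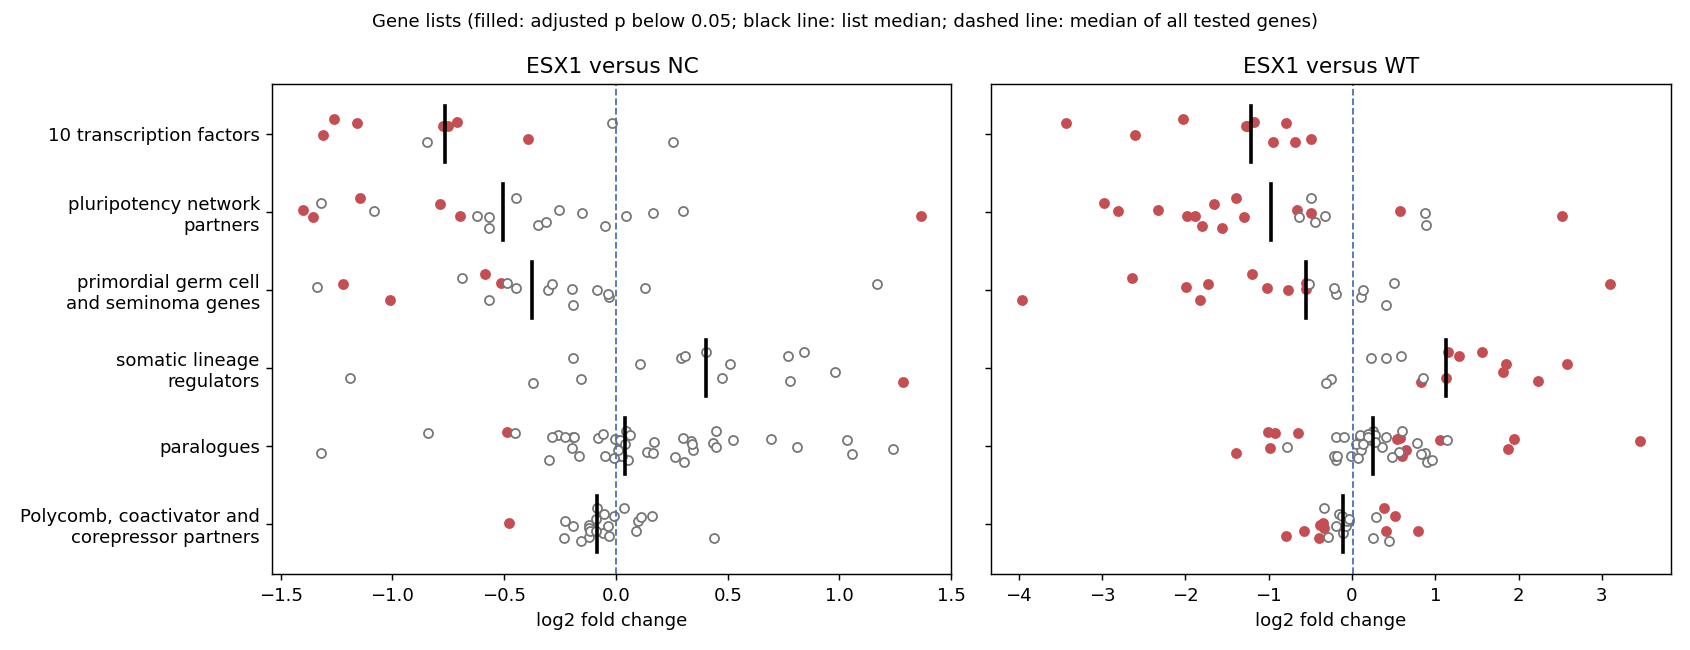
Each point is the log2 fold change of 1 tested gene, filled at an adjusted p below 0.05 (edgeR), for the 10 transcription factors and the 5 related lists, in ESX1 versus NC and ESX1 versus WT, with a black line at the list's median and a dashed line at the median of all tested genes. The medians of the 10 factors lie at -0.76 and -1.22, those of the somatic regulators at 0.40 and 1.13.

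Markers of other cell types were set beside these results. The summed level of 6 fibroblast and endothelial markers was 15.2 to 23.3 normalized CPM in WT, 36.4 to 51.0 in NC and 42.8 to 73.9 in ESX1 cells, mostly from VWF and COL1A1. The group means in WT, NC and ESX1 cells were 12.8, 24.6 and 34.8 normalized CPM for VWF, 3.65, 17.01 and 17.7 for COL1A1 and 0.588, 0.900 and 1.28 for PDGFRA. They were 0, 0.239 and 0.415 for DCN, 0, 0.0685 and 0.359 for PECAM1 and 1.10, 0.105 and 0.494 for CDH5. Embryonal carcinoma markers summed to 117 to 138 in WT, 81.9 to 95.2 in NC and 66.9 to 84.8 in ESX1 cells. Leydig cell markers summed to 1.78 to 3.06, 3.46 to 5.39 and 3.22 to 8.52, with INSL3 and HSD3B2 at 0 counts in every sample. The sums of endoderm markers (17.1 to 19.7, 17.2 to 20.6 and 12.9 to 28.1, with AFP at 0), of trophoblast markers (15.7 to 18.9, 13.5 to 15.4 and 11.6 to 17.7), of Sertoli markers (8.60 to 13.4, 9.47 to 16.3 and 9.56 to 23.5) and of leukocyte markers (0.218 to 1.57, 0.712 to 1.24 and 0.905 to 1.29, with CD3E at 0) overlapped between ESX1 cells and both controls. The trophoblast and endoderm sums held markers that moved in opposite directions. In WT, NC and ESX1 cells, ERVW-1 had 11.7, 4.96 and 2.55 normalized CPM, while HAND1 had 5.25, 8.84 and 11.7. GATA4 had 16.7, 15.6 and 13.9, while GATA6 had 1.32, 2.23 and 4.01. These trophoblast and endoderm markers were picked after their values were seen. The part of the fibroblast and endothelial sum in the results was not tested.

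For each factor that passed against NC, the genes with the nearest pair of log2 fold changes (NC against WT, and ESX1 cells against NC) were looked up. They were sought among 9734 tested genes with a mean of at least 10 CPM over the 9 samples. The measure was the Euclidean distance between these pairs of log2 fold changes. Nearest to POU5F1 were MERTK, a receptor tyrosine kinase, at a distance of 0.0396, and KIF5C at 0.0544. For NANOG they were GALNT16 at 0.0562, the long noncoding RNA TUNAR at 0.0678 and NANOGP8 at 0.171. PIM1, a kinase related to PIM2, was nearest to TFAP2C at 0.00725, followed by RMI2 (0.0152) and MERTK (0.0311). Near PRDM1 lay MERTK at 0.041 and RAB20 at 0.0422. The steps of POU5F1, TFAP2C and PRDM1 were thus close to one another, with MERTK among the nearest genes of all 3. PRDM14 had no neighbour as close, with HPGD, which degrades prostaglandins, at 0.208, IRX6 at 0.33 and PCDH18 at 0.41. ZSCAN10 was nearest to ARSJ (0.0996), VASH1 (0.103) and CHST2 (0.196), and SALL4 to KIF4A (0.0201), PODXL (0.0213) and SFXN5 (0.0214).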

How the data were processed

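Total RNA of 9 samples (TCam-2 WT, NC and ESX1, 3 biological replicates each) was depleted of ribosomal RNA and sequenced as stranded read pairs. For the deposited counts, the authors used HISAT2 2.0.5 on GRCh38 and then featureCounts per gene, without normalization. Per the file headers, featureCounts was version 1.5.2 with GENCODE v26 and without a strand option, while the processing notes name version 1.6.5. The authors also deposited log2 values normalized with DESeq2, whose transformation is not given in the sources used here and which were used only in an alternative. Of the columns with sample values, 0 were unmapped.

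The counts were tested with edgeR 4.0.16 in R 4.3.3 (filterByExpr, TMM, glmQLFit over all 9 samples, glmQLFTest), with Benjamini-Hochberg adjustment across the 18452 tested genes. Genes were called at an adjusted p below 0.05, or also at a fold change of at least 2. The common dispersion was 0.0277, and the test was checked on simulated data. Alternatives were DESeq2 1.42.0, limma 3.58.1 on the deposited log2 values, RLE and upper-quartile factors, other filters, only the 6 samples compared, a replicate block, copies added to the gene, a fit without mitochondrial genes and small structural RNAs, and leaving out each sample. The text names the 10 genes, ESX1, up to 4 called genes of each list with the largest change against NC, paralogues and copies, and the 3 genes nearest in pattern. A gene that this rule names is not reported here. The genes and lists were chosen with earlier results of these data known. RefSeq windows of 6 of the genes were used. Windows of listed genes on chromosome 8, where PRDM14 lies, were left out of the search.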

Additional observations from a re-analysis of the deposited data

How the results depend on the processing

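Over the alternatives for each of the 10 genes in the 3 comparisons, 532 of the values kept their direction and side of the threshold, 33 lost a call, and 2 turned in sign, both for KLF4 against NC, where the log2 fold change ranged from -0.0641 to 0.0716 over the samples left out, with 0.0716 without ESX1 replicate 2 (adjusted p = 0.875) and 0.0705 without NC replicate 1 (0.919). POU5F1, NANOG, TFAP2C, PRDM1 and ZSCAN10 kept their call against NC in each alternative run. With each sample left out in turn, 5 to 7 genes were called against NC (2 to 3 at least 2-fold), 9 to 10 against WT (6 to 7) and 6 to 8 in NC against WT (2 to 3). The number of all genes called against NC moved from 784 to 447 without ESX1 replicate 3 and to 428, 392 and 347 without NC replicates 1, 2 and 3, and that of NC against WT from 3158 to 1869, 2009 and 1881 without the same NC replicates and to 1792 without WT replicate 2. On the deposited log2 values, limma called 1 gene at least 2-fold lower against NC in place of 3. The list counts, which were added as alternatives after seeing the data, moved as follows. Somatic regulators against NC were 1, and 2 with DESeq2, 4 without a filter beyond 1 count, 4 with only the 6 samples compared, 2 with the block and 2 with limma. Paralogues against NC were 1, and 2 with DESeq2 and 3 without the filter. Against WT, germ cell genes went from 11 to 7 and somatic regulators from 9 to 5 with at least 10 counts in every sample, where UTF1 was not tested, and chromatin partners from 10 to 6 with only the 6 samples compared. The causes of these moves were not tested. Deviations of samples with the same replicate number correlated between -0.0249 and 0.165, under 0.1 for most, so the numbers were not taken as pairs. With the replicate number as a block, 7 and 3 genes were called against NC, 9 and 6 against WT and 8 and 2 in NC against WT, without and with the 2-fold demand, and among the 10 genes UTF1 against WT was the one call lost (adjusted p = 0.0606). UTF1 had the fewest counts of the 10 genes, with 7 in its lowest sample.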

Other observations

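Within WT, the 10 transcription factors were not evenly spread over the replicates. All 10 had their highest normalized CPM in WT replicate 3, which held the highest value for 35.7% of all tested genes, and 7 had their lowest in WT replicate 1, which held the lowest for 38.7%. The span was widest for ZSCAN10 and PRDM14, with coefficients of variation of 36.03% and 32.8% in WT, and narrowest for SALL4 and TFAP2C, with 5.07% and 5.29%. In ESX1 cells, replicate 3, the shallowest library, held the lowest value for 6 of the 10 and the highest for 2, beside 32.1% and 31.5% of all tested genes. These replicates have no order, the genes share each library, and the cause was not tested.

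Several genes of the lists differed between ESX1 and WT cells in ways not named above, and they were picked after their values were seen. OTX2, a homeobox factor of the primed stem cell state, had 23.8 normalized CPM in WT, 7.18 in NC and 3.29 in ESX1 cells (log2 fold change -2.81 against WT, adjusted p = 2.46e-06). TDGF1, the NODAL co-receptor, had 49.6, 20.6 and 13.3 (-1.89, 2.78e-06). GATA3, a factor of trophoblast and other lineages, had 1.01, 4.30 and 6.05 (2.58, 7e-05), and PRDM16, a relative of PRDM1, had 0.214, 2.11 and 2.68 (3.45, 0.000624). The values of PRDM16 rest on 134 counts over all samples, with very few of them in WT. None of these 4 genes passed against NC in edgeR's test (adjusted p = 0.0555 for OTX2, 0.102 for TDGF1, 0.465 for GATA3 and 0.805 for PRDM16).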
